A study of Homo sapiens with 2 samples.

Results

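The long arm of chromosome 16 was described across its protein-coding genes in RNA sequencing libraries of 697 and REH, both human lines of acute lymphoblastic leukemia of B-cell precursors (BCP-ALL). Members were protein-coding genes of GENCODE 44 that start above 46000000 on chromosome 16 (GRCh38) and had 50 or more reads in both libraries. Of 371 such genes with an ID in the files, 231 passed the minimum, 36 reached it in 1 library only and 104 were below it in both, of which 37 had 0 reads in both. Of the 231, 10 were left out by name, so that 221 members remained of 57773 gene IDs in all. The members were selected on the reads of these same libraries, and the arm was selected with its shift between the lines already known. The ratios below are therefore a description, with no test.

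The question was which genes followed the shift of the chromosome and which departed from it. In REH, ETV6/RUNX1 is present and the unrearranged ETV6 allele is deleted, whereas 697 is negative for that fusion. Both lines were grown in RPMI medium with fetal bovine serum and antibiotics, without a drug or a knockdown. Each line is 1 established culture and gave 1 library, so every value compares these libraries and the spread between cultures is unknown. Of the 8 B-cell precursor markers inspected, 8 exceeded 10 CPM in 697 and 7 did so in REH, where VPREB1, a surrogate light chain gene, had 3 reads. All 4 T cell markers and all 3 erythroid markers stayed below 1 CPM in both libraries. Of 3 fibroblast markers, COL1A1, a collagen gene, had 477 reads in REH and 387 in 697 (9.49 and 10.5 CPM). COL1A2 had 0 reads in both, and DCN had 1 in REH and 0 in 697. Of 4 myeloid markers, MPO, a granule enzyme, reached 252 CPM in REH and 0.325 CPM in 697, and its part in the ratios was not tested. The others stayed below 1 CPM in both libraries, namely LYZ (1 read in REH and 2 in 697), CD14 (29 and 8) and ELANE (0 in both).

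The long arm of chromosome 16 holds the metallothionein cluster, a row of cadherin and chemokine genes, and many genes that all cells use, such as CTCF, AARS1 and CNOT1. Such neighbours are mostly controlled one by one, through their own promoters and enhancers. A ratio shared by most genes of an arm is therefore a different pattern from a large ratio of a single gene. DNA copy number was not measured in these files.

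Most genes of the arm were higher in REH. The median log2 ratio of REH over 697 was 0.56, that is 1.47-fold, and the 95% order-statistic band of the median ran from 0.50 to 0.70. The middle 50% of the genes lay between 0.13 and 0.96, and the full range was -5.93 to 3.01. A ratio above 0 was found for 176 of 221 genes (79.6%), against 44.8% of 9950 protein-coding genes of the other chromosomes with the same read minimum. The members took 1075015 reads in REH, 2.38% of the reads in genes, and 548831 reads in 697, which is 1.34%. Without scaling of the libraries by TMM (trimmed mean of M-values), the median of the arm was 0.87. The median of the other chromosomes was -0.09, and the arm lay 0.65 above it with and without that scaling. Scaling moves both medians alike, so this distance could not change with it.

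The genes nearest the median show what the shift looks like in reads. ZNF276, a zinc finger gene, had 2498 reads in REH and 1245 in 697. WWOX, an oxidoreductase gene that spans a common fragile site, had 2288 reads in REH and 1142 in 697. CSNK2A2, a catalytic subunit of casein kinase, had 9066 reads in REH and 4528 in 697. All 3 genes had a log2 ratio of 0.56 after scaling. The same direction was seen in the most abundant members, since SLC7A5, the large neutral amino acid transporter, had 64861 reads in REH against 25701 in 697 (log2 ratio 0.89). AARS1, the alanyl-tRNA synthetase, had 43320 and 23067 reads (0.47).

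The shift was not particular to the long arm. The 278 protein-coding genes of the rest of chromosome 16 had a median of 0.65 (band 0.53 to 0.71), and 227 of them (81.7%) were above 0. The long arm lay 0.09 below that median, and the bands overlapped. Among genes whose exons overlap no gene on the other strand, the order turned, and the long arm lay 0.06 above the rest of the chromosome. Taken as a whole, chromosome 16 had a median of 0.60 and ranked first of 23 chromosomes. The next chromosomes were 21 with a median of 0.29 and 6 with 0.13, and the lowest was 8 with -0.45.

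**Figure D1:**
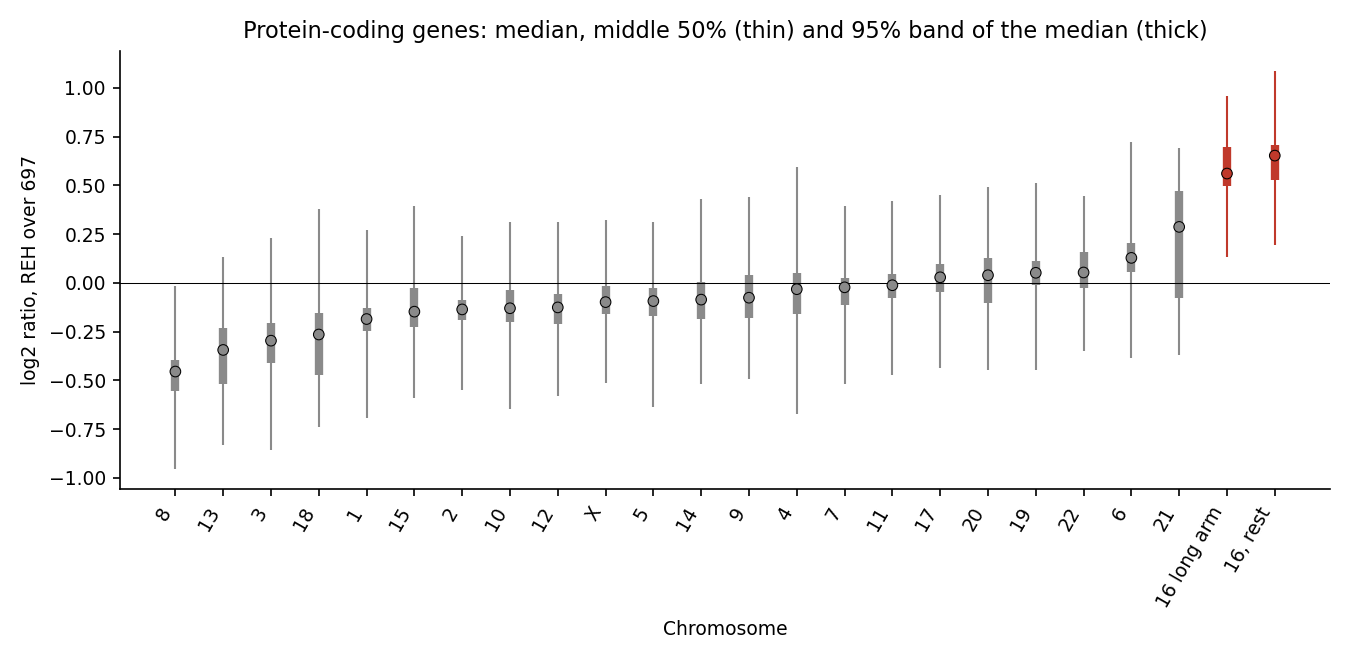
Median log2 ratio of REH over 697 (y axis) of protein-coding genes with 50 or more reads in both libraries, by chromosome (x axis), with 1 library per line. Thin lines give the middle 50% of the genes and thick lines the 95% order-statistic band of the median. The long arm of chromosome 16 (0.56) and its rest (0.65) sit above chromosome 21 (0.29), whose band is wide.

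Genes outside the selection also had medians above 0, though not all of their bands excluded 0. The 18 lncRNA genes of the long arm with the same read minimum had a median log2 ratio of 0.89, and 16 were above 0. The median of 737 lncRNA genes of other chromosomes was -0.10. The 26 protein-coding genes of the arm with 10 to 49 reads in the lower library had a median of 0.81, with a wide band of -0.995 to 1.76, and their counterparts elsewhere had 0.47. The 10 genes left out by name had a median of 0.73, with a wide band of -0.97 to 2.98 and a range of -2.02 to 3.42. Of them, 6 (60%) were above 0, so they say little on the shift.

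A gene was said to depart from the shift when its log2 ratio lay 1 or more from the median of the arm. By that size, 14 members (6.33%) lay above and 27 (12.2%) lay below, while 180 stayed within. Among genes of the other chromosomes, measured from the median of their own chromosome, 9.72% lay above and 11.3% below. The share below was close to that elsewhere and the share above was smaller, a difference that was not tested. The members' shares do not count the 10 genes left out by name, whereas no gene was left out by name elsewhere. Counting error was small for most members, and the whole 95% counting interval lay past the threshold for 11 of those above and 22 of those below. The middle 50% of departures spanned 0.83 in the members and 0.94 elsewhere. The members just inside the threshold were GINS2, a subunit of the replicative helicase, at -1.02 from the median and ZNF821 at -1.02. NOB1, an endonuclease of ribosome assembly, lay just outside at -0.95.

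**Figure D2:**
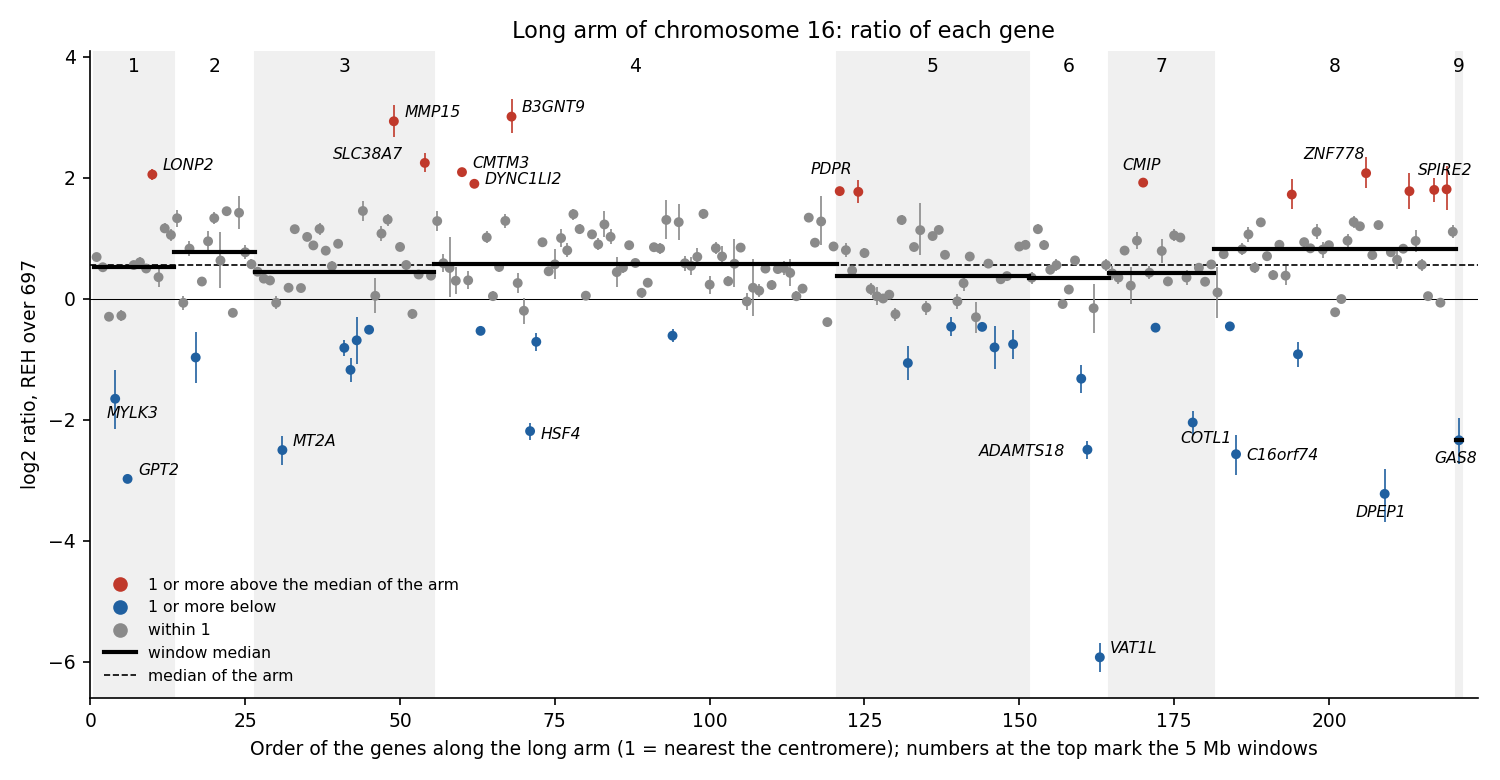
Log2 ratio of REH over 697 (y axis) of the 221 members in their order along the long arm (x axis), with 95% counting intervals as vertical lines and 1 library per line. Red points lie 1 or more above the median of the arm (0.56, dashed), blue points 1 or more below, and thick bars give the medians of 5 Mb windows. Most points sit between 0 and 1.5, whereas VAT1L (-5.93) lies far below its neighbours.

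The genes that departed were less abundant than those that followed the shift. A library with under 500 reads was present for 9 of 14 genes above, 16 of 27 genes below and 29 of 180 genes within. A gene on the other strand shared exonic sequence with 7 of the 14, 10 of the 27 and 100 of the 180. Since reads fell on both strands alike (24254199 on the strand of the gene and 24132171 on the opposite strand in REH), such reads cannot be told apart. In each strand column taken alone, 37 of the 41 departing genes still lay 1 or more from the median. For genes without such overlap the columns divide the same reads, and with overlap they can hold reads of the other gene. This count is therefore no separate check of a departure. The exceptions were ADCY7, ZNF821, ZFHX3 and GINS2.

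Genes that lay above the shift included enzymes of the Golgi and cell surface, a transporter and a motor protein subunit. B3GNT9, a glycosyltransferase of the Golgi (chr16:67148104-67150998), had 1277 reads in REH and 116 in 697, or 25.4 and 3.14 CPM. Its log2 ratio was 3.01 (95% counting interval 2.74 to 3.30), the highest of the arm. It overlaps PHAF1 on the other strand, and its ratio was 2.61 and 2.54 in the strand columns. MMP15, a membrane-anchored matrix metalloproteinase (chr16:58025754-58046901), had 1346 reads in REH and 129 in 697, with a log2 ratio of 2.93 (2.68 to 3.21). Both genes were low in 697 and 8.06-fold and 7.64-fold higher in REH.

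SLC38A7, a glutamine transporter of the lysosome, had 2583 reads in REH against 400 in 697 (log2 ratio 2.25). CMTM3, a member of the chemokine-like MARVEL family, had 9851 and 1697 reads (2.09, interval 2.02 to 2.17). LONP2, the Lon protease of peroxisomes, had 6960 and 1232 reads (2.05). For LONP2, which overlaps SIAH1 and ABCC11 on the other strand, the ratio was 1.66 and 1.68 in the strand columns. These genes had 400 or more reads in each library, and their counting intervals were correspondingly narrow.

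DYNC1LI2, a light intermediate chain of cytoplasmic dynein, had 17580 reads in REH against 3462 in 697 (log2 ratio 1.90). CMIP, a signalling adaptor first described in T cells, had 10157 and 1973 reads (1.92). ZNF778, a KRAB zinc finger gene, had 834 and 145 reads (2.08, interval 1.82 to 2.34). PDPR, the regulatory subunit of pyruvate dehydrogenase phosphatase, had 9251 and 1981 reads (1.78). Near copies of PDPR exist on the same chromosome, and reads that map to several places were not counted. SPIRE2, an actin nucleator, had 1190 and 251 reads (1.80). The other 4 genes above were MC1R, the melanocortin receptor, the mRNA export helicase DDX19B, SPATA2L and ZNF469, with log2 ratios of 1.81, 1.77, 1.78 and 1.72. DDX19B has a close neighbour copy, DDX19A, whose ratio was 0.75.

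The genes below the shift reached farther from it. VAT1L (chr16:77788564-77980107) had 147 reads in REH and 6608 in 697, or 2.92 and 179 CPM. Its log2 ratio was -5.93 (-6.18 to -5.70), that is 61.0-fold higher in 697. GPT2, the mitochondrial alanine aminotransferase (chr16:46884362-46931289), had 2175 reads in REH and 12615 in 697, with a log2 ratio of -2.98 (-3.05 to -2.91). GPT2 was thus 7.89-fold higher in 697. The members before it, ORC6 (-0.30), MYLK3 (-1.65) and C16orf87 (-0.28), also lay below the median of the arm, whereas DNAJA2 (0.56) and ITFG1 (0.60), the next after it, lay near the median. These neighbours are named for their position. VAT1L and GPT2 overlap no gene on the other strand.

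DPEP1, a membrane dipeptidase, had 51 reads in REH against 354 in 697 (log2 ratio -3.23, interval -3.69 to -2.81), and its REH count was the lowest of any member in that library. ADAMTS18, a secreted metalloproteinase, had 433 and 1798 reads (-2.50). C16orf74 had 96 and 421 reads (-2.57). HSF4, a heat shock transcription factor, had 517 and 1735 reads (-2.19). COTL1, an actin-binding protein, had 287 and 873 reads (-2.05). GAS8, part of the dynein regulatory complex of cilia, had 77 and 288 reads (-2.34). GAS8 overlaps DBNDD1 and other genes on the opposite strand, and its ratio was -1.55 and -1.62 in the strand columns. Whether the overlap made that difference was not tested. MYLK3, a myosin light chain kinase, had 52 and 121 reads (-1.65, interval -2.16 to -1.18). All of these genes were higher in 697, against the direction of the arm.

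**Figure D3:**
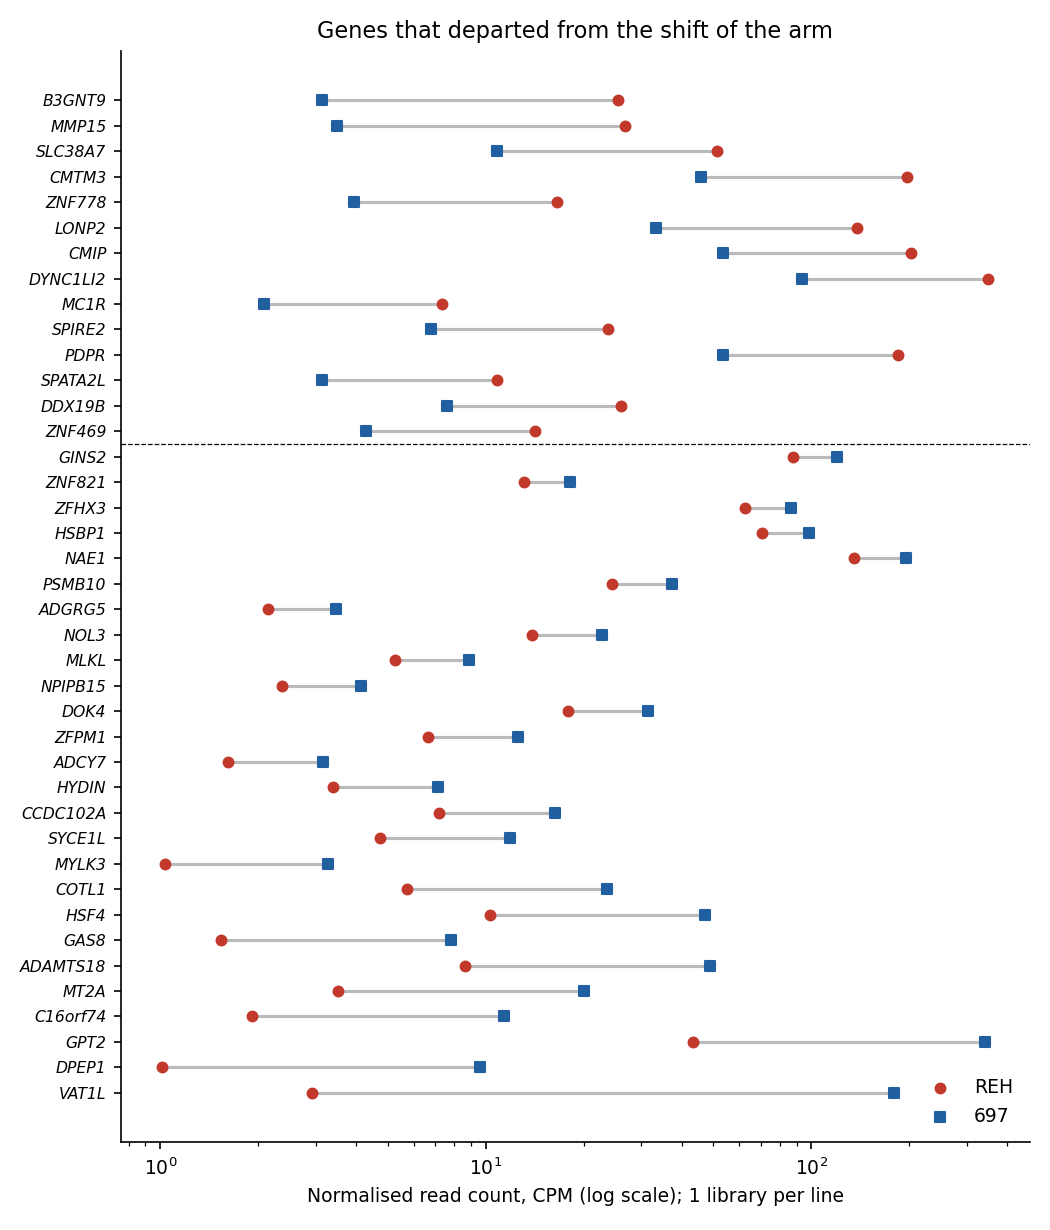
Normalised read counts (CPM, log scale, x axis) of the departing members, 1 of which is not shown, in REH (circles) and 697 (squares), with 1 library per line. Genes above the dashed line were 1 or more above the median of the arm and genes under it 1 or more below, and the widest gap is that of VAT1L, with 2.92 CPM in REH and 179 CPM in 697.

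The other 17 genes below had smaller departures, and all of them were also lower in REH when reads of both strands were used. They included NAE1, a subunit of the NEDD8-activating enzyme, with 6783 reads in REH against 7209 in 697 (log2 ratio -0.53). PSMB10, an immunoproteasome subunit, had 1229 and 1380 reads (-0.61). ZFPM1, a cofactor of GATA factors, had 333 and 463 reads (-0.92). HYDIN, a protein of motile cilia with a near copy on another chromosome, had 171 and 263 reads (-1.06). Others were CCDC102A, SYCE1L, DOK4, ADGRG5, NOL3, MLKL, NPIPB15, ZNF821, ZFHX3, GINS2 and HSBP1, with ratios between -1.32 and -0.46. The ratio of ADCY7, an adenylyl cyclase that overlaps BRD7 on the other strand, depended on the strand column. It was -0.97 in the counts over both strands (81 reads in REH and 117 in 697), and 0.09 and 0.25 in the strand columns. Those columns held more reads (325 and 376 in REH, 227 and 236 in 697), and which of them came from BRD7 cannot be told.

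In 5 Mb windows by gene start, medians lay above 0 except in the last window, which held GAS8 alone (-2.34). All 8 windows with 5 or more members had a median above 0, from 0.35 to 0.82. The order-statistic band of the median included 0 at 45 to 50 Mb (-0.30 to 1.05) and 50 to 55 Mb (-0.07 to 1.33). It also did so at 75 to 80 Mb (-1.32 to 0.63), and in the others of the 8 the band lay above 0. Genes are not replicates and the arm was selected on its shift, so these bands settle a shift in no window. No member started between 60 and 65 Mb. Over the genome, 376 windows held 10 or more protein-coding genes with 50 reads in both libraries. All 15 of those on chromosome 16 had a median above 0, against 122 of 361 on other chromosomes, of which 7 reached the median of the long arm. The other chromosomes' windows had a median of -0.10, and their central 90% ran from -0.69 to 0.32. The lowest window of the long arm was therefore above that range.

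The window from 45 to 50 Mb, next to the centromere, held 13 members with a median of 0.52, with LONP2 highest (2.05) and GPT2 lowest (-2.98). From 50 to 55 Mb, 13 members had a median of 0.77, led by the chromatin remodeler gene CHD9 (1.45), and ADCY7 was lowest. From 55 to 60 Mb, the median of 29 members was 0.45, between MMP15 (2.93) and MT2A (-2.50), and 2 genes departed upwards and 5 downwards. The window from 65 to 70 Mb was the most gene-rich, with 65 members and a median of 0.58, and 58 of its genes were above 0. It ran from HSF4 (-2.19) to B3GNT9 (3.01), which have only TRADD and FBXL8 between them among the members.

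From 70 to 75 Mb, 31 members had a median of 0.37, with PDPR (1.78) highest and HYDIN (-1.06) lowest. The window from 75 to 80 Mb had the lowest median, 0.35 over 13 members, and its mean was -0.40, since VAT1L, ADAMTS18 and SYCE1L lay far below. Its highest gene was CFDP1 (1.15), which codes for a chromatin-bound protein, and no member lay 1 or more above the median of the arm. From 80 to 85 Mb, 17 members had a median of 0.43, between CMIP (1.92) and COTL1 (-2.05). The window from 85 to 90 Mb had the highest median, 0.82 over 39 members, with ZNF778 highest and DPEP1 lowest. Measured from the median of the arm, 5 of its genes lay above and 4 below, and measured from its own median 1 lay above and 5 below. The last window held GAS8 alone.

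**Figure D4:**
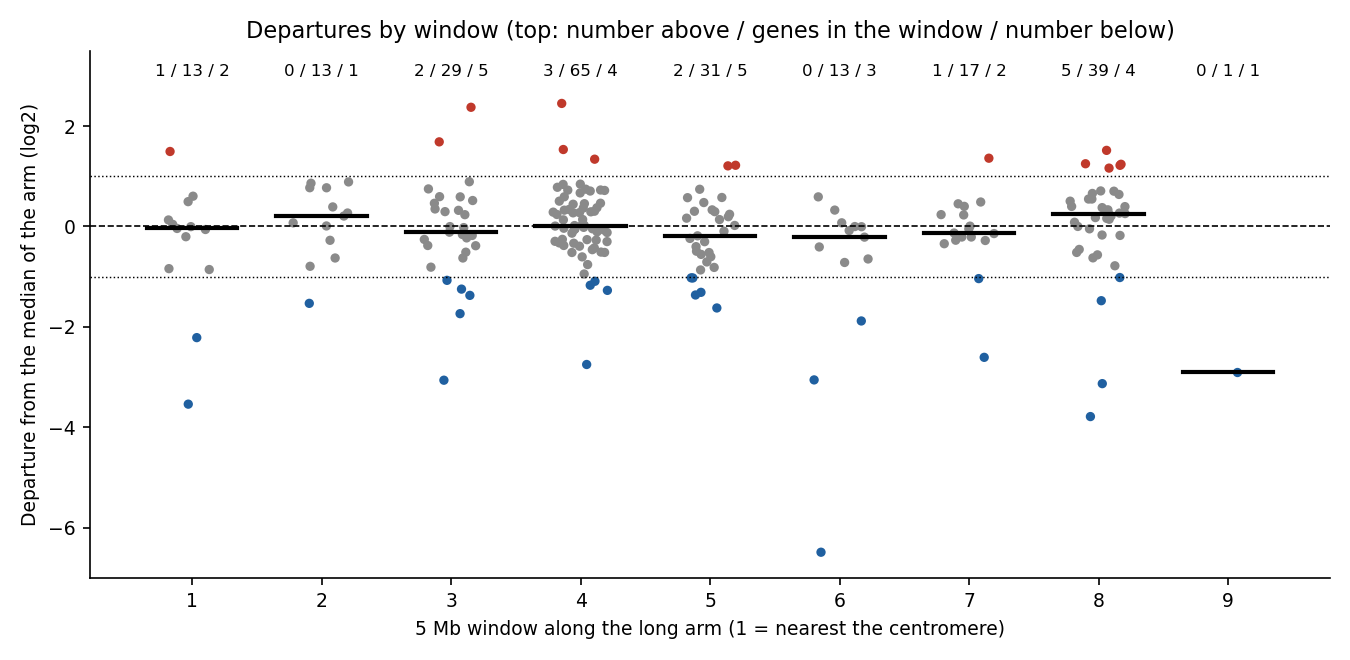
Departure of each member from the median of the arm (y axis, log2) by 5 Mb window (x axis, numbered from the centromere, leaving out 60 to 65 Mb, where no member started), with bars at the window medians. Red and blue points lie 1 or more above or below (dotted lines), and the numbers at the top give genes above, all members and genes below. The medians of the first 8 windows lie between -0.21 and 0.26.

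The medians of neighbouring windows differed by little beside the spread of genes within a window. The highest and the lowest differed by 0.47, whereas the middle 50% of genes within a window spanned 0.51 to 1.05. The 95% bands of the lowest window (-1.32 to 0.63) and the highest (0.56 to 0.96) overlapped. These bands are over genes, which are not replicates, and the order of the windows was not tested. Exonic GC content differed between windows, with medians of 46.8% in the window at 75 to 80 Mb and 57.8% in that at 85 to 90 Mb. Over the 221 members, Spearman's rho of the log2 ratio was 0.02 with exonic GC content, 0.15 with exonic length and 0.08 with the mean level. These are correlations across genes of the same libraries, and no weight is given to them.

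Departing genes were mostly scattered. The rho between the ratio of a member and that of the next member was 0.08, and it was 0.16 on the other chromosomes. Adjacent members departed in the same direction in 4 places. DOK4, CCDC102A and ADGRG5 formed the longest such run, over 119.8 kb (chr16:57471922-57591681). DOK4 codes for a docking protein and ADGRG5 for an adhesion G protein-coupled receptor, and ADGRG5 had 108 reads in REH against 128 in 697 (log2 ratio -0.69). The next gene, the related receptor ADGRG1, had 1396 and 375 reads (1.45) and is named here after its values were seen. HSF4 and NOL3, an inhibitor of apoptosis, formed a pair over 11.1 kb, as did SYCE1L and ADAMTS18 over 235.6 kb and GINS2 and C16orf74 over 74.9 kb. In 2 other places adjacent members departed in opposite directions, namely DYNC1LI2 with NAE1 and ZNF469 with ZFPM1.

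Groups by function were described by counts and medians, beside those of all members, which had a median of 0.56, with 79.6% above 0, 6.33% departing upwards and 12.2% downwards. No group was tested against them. The groups were drawn up broadly, overlap in part and hold some genes that do not match the name of their group, not all of which are pointed out. The 14 vesicle and lysosome genes had a median of 0.86, and none departed. ATP6V0D1, a subunit of the proton pump of lysosomes, was highest with 4396 reads in REH and 1226 in 697 (1.40), and COG4, of the Golgi tethering complex, was lowest with 5368 and 3936 reads (0.00, interval -0.06 to 0.06), which is level with 0. The other members of the group were above 0. VPS35, the core of the retromer, had a ratio of 0.52 and AP1G1, of the clathrin adaptor, 1.04. The 13 genes of RNA processing and decay had a median of 0.70, and 1 departed, upwards. CNOT1, the scaffold of the deadenylase complex, had 37120 and 20668 reads (0.40), DDX19B was highest at 1.77 and NIP7, a ribosome assembly factor, lowest at 0.04 (interval -0.04 to 0.12), which cannot be told from 0.

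The 17 genes of DNA replication, telomeres and chromosome segregation had a median of 0.15. None departed upwards, 2 departed downwards and 12 were above 0. CHMP1A, of the membrane-cutting ESCRT machinery, was highest (0.77). The most abundant were NUDT21, in fact a cleavage factor of mRNA 3′ ends, with 22288 and 13015 reads (0.33), and RFWD3, a ubiquitin ligase of DNA repair, with 14218 and 8068 reads (0.37). The 12 proteasome, ubiquitin and cullin genes had a median of 0.37, and the 2 below were PSMB10 and NAE1. In that group CYLD, a deubiquitinase that restrains NF-kappaB signalling, was highest (1.33) and USP10 stood at 0.28. The 9 genes of tRNA synthetases and ribosome assembly had a median of 0.50. KARS1, the lysyl-tRNA synthetase, had 13238 and 10341 reads (-0.09, and above 0 without TMM scaling), and NOB1 was lowest at -0.39.

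The 23 mitochondrial and metabolic members had a median of 0.79, and 19 were above 0. PDPR was above the shift and 2 were below, DPEP1 and HSBP1. HSBP1 binds heat shock factor and DPEP1 sits at the cell surface. The list does not hold GPT2, the mitochondrial enzyme described above that also lay far below the shift. PHKB, a subunit of phosphorylase kinase, had 9196 and 4781 reads (0.50). The 28 transcription and chromatin genes of 37 listed had a median of 0.56, equal to that of all members, with ZNF778 and ZNF469 above and GAS8, HSF4, ZFPM1 and ZFHX3 below. GAS8 is a cilium gene and not a regulator of transcription. ANKRD11, a chromatin regulator, had 31057 and 13849 reads (0.72). The 12 members of 23 listed immune genes had a median of 0.86, with CMTM3 above and ZFPM1, ADGRG5 and PSMB10 below. CYBA, a subunit of the phagocyte NADPH oxidase, had 8283 and 3417 reads (0.83).

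Of the 8 chemokine and CMTM genes, 4 were members, with a median of 0.45. CKLF, the founding gene of the chemokine-like family, had 1098 and 537 reads (0.59) and CMTM1 had 435 and 260 (0.30), whereas their neighbour CMTM3 departed upwards. CKLF-CMTM1, the read-through transcript of these genes, passed the minimum narrowly with 103 and 53 reads and shares its sequence with both. Of 5 carboxylesterases, CES2, a drug-hydrolysing enzyme, was a member with 3707 and 1894 reads (0.52). None of the 8 cadherin genes reached 50 reads in both libraries.

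The metallothioneins, a row of neighbouring genes, had more reads in 697 than in REH. Metallothioneins are small cysteine-rich proteins that bind zinc and copper, and their genes are induced by metals through the factor MTF1, which binds metal response elements in their promoters. The 11 genes lie side by side from MT4 to MT1X, and MT2A alone was a member. MT2A (chr16:56608584-56609497) had 177 reads in REH and 739 in 697 with a log2 ratio of -2.50 (-2.75 to -2.27). MT1X just missed the minimum with 48 reads in REH, against 2791 in 697, and had a log2 ratio of -6.29 (-6.75 to -5.89). MT1G had 1 read in REH and 835 in 697, with an interval of -15.46 to -7.67.

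MT1E had 0 reads in REH and 270 in 697, and MT1F 0 and 322. Against a floor of 3 reads per library, MT1E was at least 122-fold and MT1F at least 146-fold lower in REH. MT1M (25 reads in 697) and MT1H (13) were also at 0 in REH, and were at least 11.3-fold and 5.90-fold lower there. These bounds leave out the counting error of the 697 reads. With it, the 95% upper bound of the log2 ratio was -6.63 for MT1E, -6.88 for MT1F, -3.10 for MT1M and -2.05 for MT1H. MT4, MT3, MT1A and MT1B had 0 reads in both libraries. Summed over the 11 genes, the cluster had 226 reads in REH and 4995 in 697, which is 4.50 and 135 CPM. Every metallothionein gene with a read in either library was higher in 697. The genes are near copies of each other, and since reads mapping to several places were not counted, how these reads divide among them is uncertain.

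**Figure D5:**
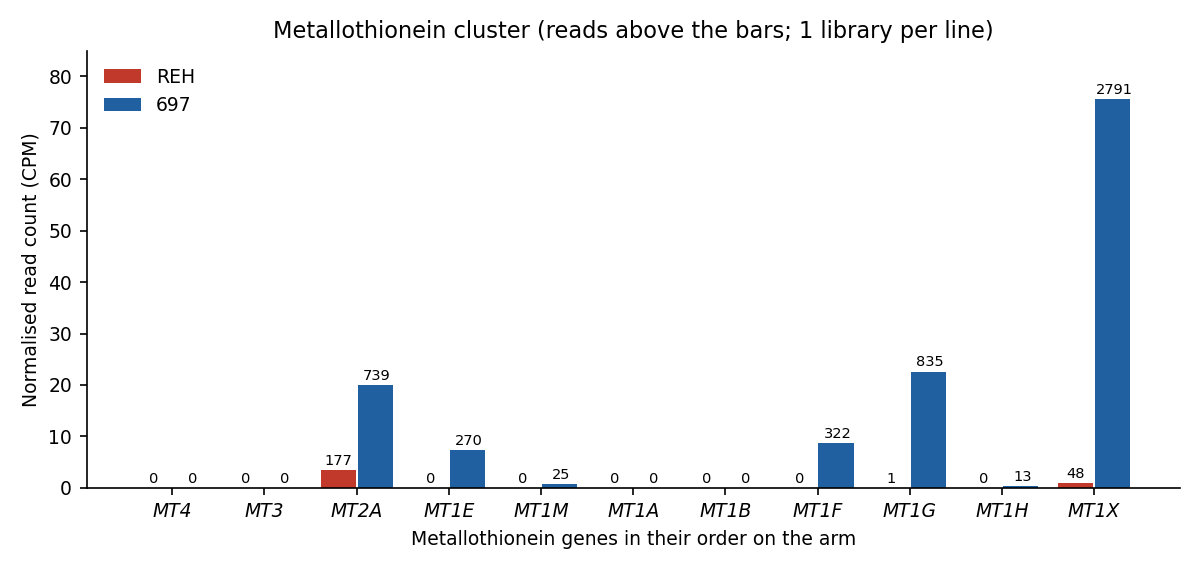
Normalised read counts (CPM, y axis) of the 11 metallothionein genes in their order on the arm (x axis) in REH (red) and 697 (blue), with raw reads above the bars and 1 library per line. MT1X reached 75.5 CPM in 697 and 0.955 CPM in REH, and 4 genes had 0 reads in both.

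The promoters of the cluster are printed because the metal response element is the known control element of these genes. Of the 11 genes, 5 had a promoter in the RefSeq table (GRCh38.p14, plus strand). The 250 bases before the start are given 5′ to 3′ for 3 of them, in lower case. Capitals mark the cores of the metal response element, searched as TGCACNC and TGCGCNC on both strands, and cores may overlap each other. The genes are MT2A (chr16:56608334-56608583), which had reads in both libraries, MT1X (chr16:56682220-56682469), with the largest count in 697, and MT1B (chr16:56651636-56651885), which had 0 reads in both.
MT2A: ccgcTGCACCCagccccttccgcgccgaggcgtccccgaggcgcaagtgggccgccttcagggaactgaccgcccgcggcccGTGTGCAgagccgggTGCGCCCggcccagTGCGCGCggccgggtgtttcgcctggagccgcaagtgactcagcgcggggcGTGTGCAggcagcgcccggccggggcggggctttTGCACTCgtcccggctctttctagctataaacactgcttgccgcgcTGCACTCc
MT1X: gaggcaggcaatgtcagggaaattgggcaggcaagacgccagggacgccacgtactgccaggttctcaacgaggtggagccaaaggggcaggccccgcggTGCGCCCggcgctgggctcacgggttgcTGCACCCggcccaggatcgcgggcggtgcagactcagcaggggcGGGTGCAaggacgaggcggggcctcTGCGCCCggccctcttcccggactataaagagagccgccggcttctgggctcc
MT1B: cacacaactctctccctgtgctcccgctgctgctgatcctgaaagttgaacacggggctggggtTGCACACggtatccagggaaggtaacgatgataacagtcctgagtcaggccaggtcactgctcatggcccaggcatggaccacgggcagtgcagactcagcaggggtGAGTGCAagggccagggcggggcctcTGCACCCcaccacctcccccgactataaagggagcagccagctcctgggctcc

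The promoter of MT2A held 7 cores, that of MT1X 4 and that of MT1B 3. The promoters of MT1H and MT4 held 8 and 3. Of 35116 promoters of that length, 24.8% held 1 or more cores, 1.58% held 3 or more, 0.370% held 4 or more and 0.0513% held 6 or more. MT1H, with the most cores, had 13 reads in 697, whereas MT1X, with fewer cores, had 2791. MT4 and MT1B, with the fewest cores of the 5, had 0 reads in both libraries. A match of letters is a description and says nothing of whether the factor was bound in these cells.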

How the data were processed

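Total RNA from REH and 697 cells was sequenced, with 1 library per line, and samples were grouped by the cell line in the labels. The authors deposited a table of raw counts per gene for each library, before any normalization. Per the study's methods, reads were aligned to hg38 with STAR, whereas the submitters' processing notes name STAR and hg19. The labels describe ribodepleted, stranded libraries and the methods poly(A) purification. The annotation release is not given in the sources used here. The layout of the files, with rows for unmapped, multimapping, ambiguous and unassigned reads, is that of the gene counter of STAR, and reads that map to several places are in a row of their own, which lowers near-identical genes.

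Counts over both strands were used, since both strand columns held similar totals. Gene names, biotypes and positions came from GENCODE 44, matched by gene ID (51996 of 57773). The REH library held 45188375 reads in genes and the 697 library 41097497. Totals were scaled by TMM in edgeR 4.0.16 under R 4.3.3 over genes with 10 or more reads in a library (factors 1.11 and 0.899). CPM values use the scaled totals, and log2 ratios use counts with 0.5 reads added. Counting intervals of a ratio were derived from the exact 95% Clopper-Pearson interval of the REH share in its reads. The band of a median is the 95% order-statistic band over genes, which are not replicates. Intervals and the floor of 3 reads (0.0597 CPM in REH and 0.0812 CPM in 697) cover counting error only. With 1 library per line, no test, p-value or standard error is given.

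The members, the 12 gene groups and the marker lists were chosen with earlier results of these data known. Genes were named by rule, namely the 10 members farthest above and the 10 farthest below the median of the arm, ranked by the nearer bound of the counting interval, the 3 nearest it with 1000 or more reads in both libraries, the highest, the lowest and the 2 most abundant of each group, the extremes of each window, those at the read minimum, and all metallothioneins. The other departing members are named as well, except 1 gene that is not reported here. Promoters came from the RefSeq table of GRCh38.p14. The computation was tested on simulated data. Alternatives were size factors of DESeq2 1.42.0, TMM on protein-coding genes alone, no TMM scaling, other read minimums, 5 reads added, each strand column, bins of GC content, length and expression, the left-out genes put back, other sizes and centres of a departure, and other windows. The other steps ran in Python 3.11.15 (scipy 1.17.1, pandas 2.3.3, numpy 2.4.6) and figures were drawn in matplotlib 3.10.9.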

Additional observations from a re-analysis of the deposited data

How the results depend on the processing

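No paired analysis was possible because REH and 697 gave 1 library each, and leaving out a replicate was not possible for the same reason. The median of the arm was 0.87 on library totals without TMM scaling and 0.45 as a mean over the members, and lay within that range otherwise. The number of genes above the shift was 14 and became 22 with a minimum of 10 reads, 8 with a minimum of 200 reads, 5 at a departure of 1.5 and 2 at a departure of 2. The number below was 27 and became 17 with a minimum of 200 reads, 14 at a departure of 1.5 and 10 at a departure of 2, and was at most 35. A minimum of 10 reads adds genes and one of 200 reads removes genes, whereas the departures of 1.5 and 2 use the same 221 members. The share on other chromosomes was not computed for any alternative. These counts therefore do not tell a change in departures from a change in the genes used. In an alternative chosen after seeing the data, the 104 members without exon overlap on the other strand, 7 lay above and 17 below, and the long arm lay 0.0576 above the rest of chromosome 16 in place of 0.09 below it, so that the order of these parts is not settled. The cause was not tested. The distance to the other chromosomes stayed between 0.56 and 0.68, and the spread of window medians between 0.37 and 0.81. Measured from the median of the whole chromosome, also chosen after seeing the data, the counts above and below were the same. A distance between genes or medians cannot change with library scaling, so those alternatives are no check on departures, on window spread or on the distances between parts. Of 27 named departing genes, 325 of 329 values under all alternatives, those of scaling included, stayed 1 or more from the median. Other read minimums, the left-out genes put back and the genes without overlap change only the median from which a gene is measured. Many of these values could therefore change little or not at all, and their count is no measure of how firm the departures are. The exceptions were ADCY7 in both strand columns (-0.47 and -0.34) and NAE1 with GC bins (-0.95) and expression bins (-0.99). No departure of a named gene changed direction. Depth limits the genes with few reads, and how cultures of a line vary is unknown.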

Other observations

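Genes of the long arm with 50 or more reads in 1 library only lie outside the members, and some were among the most unequal genes of the arm. There were 36 of them, 25 above the minimum in REH and 11 in 697, and 10 had 1000 or more reads in a library. They passed the minimum through the library where they are higher, so no count of direction is drawn from them. Some had small ratios, such as BCAR1 with 55 reads in REH against 32 in 697 (log2 ratio 0.33).

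Among those higher in 697, NETO2, an auxiliary subunit of kainate receptors, had 1 read in REH and 4052 in 697. CPNE7, a copine, had 21 reads in REH against 5432 in 697 (log2 ratio -8.43, interval -9.15 to -7.85). NDRG4 had 33 and 1858 reads, CDYL2, a chromodomain gene, 18 and 1582, and SETD6, a lysine methyltransferase, 24 and 774. NDRG4 and SETD6 lie next to each other.

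Among those higher in REH, PRDM7, a zinc finger methyltransferase gene of the PRDM9 family, had 2604 reads in REH and 0 in 697. PRDM7 is a near copy of PRDM9, so that its reads are uncertain in origin. LPCAT2, an acyltransferase of phospholipid synthesis, had 1876 reads in REH and 2 in 697. CMTM2, a neighbour of CMTM3, had 1959 and 27 reads, respectively (log2 ratio 5.71, interval 5.19 to 6.34). The carboxylesterases CES3 and CES4A had 1997 and 350 REH reads, with 25 and 4 in 697, while their relative CES2 followed the shift of the arm.

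The forkhead genes FOXF1 and FOXL1, which have the member MTHFSD between them, had 129 and 1210 REH reads, with 0 and 3 in 697. PKD1L2, a polycystin-like gene, had 738 reads in REH and 0 in 697. CDH11, the only cadherin with 50 reads in a library, had 61 reads in REH and 0 in 697. These genes were named after their values were seen, and with 1 library per line their differences have no replicate check.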
